A study of Homo sapiens with 12 samples.

Results

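The cytosolic heat shock protein system was followed through 10 genes across all 12 libraries of the series: HSPA1A, HSPA1B, HSPA8, HSPH1, DNAJA1, DNAJB1, HSPB1, HSP90AA1, HSP90AB1 and BAG3. They were chosen by gene name from the 57500 genes of the deposited count table, a rule that uses no measured value, though earlier results of these data were known when the genes were chosen. Each of the 10 names stood on 1 gene identifier, and all 10 passed the filter on low counts. The study depleted PACT, a double-stranded RNA binding protein encoded by PRKRA, with Cas9 in HCC1806 and MDA-MB-468, both established lines from triple-negative breast cancers. HCC1806 carried the control guide sgC1 or the PRKRA guide sgPACT-2, and MDA-MB-468 carried the control guide sgNTA or sgPACT-2, with 3 libraries in each of the 4 groups. Because each line had a control guide of its own, the effects of line and of control guide cannot be told apart. The labels do not say whether the edited cells were 1 clone or a pool, or how long after editing RNA was taken. They do not say either that replicates came from separate cultures, so p-values measure only the spread between these samples, which may be technical. The RNA was DNase-treated total RNA depleted of rRNA.

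HSP70 proteins bind exposed hydrophobic stretches of client proteins in cycles of ATP binding and hydrolysis. J-domain proteins deliver clients and start hydrolysis, and HSP110 proteins and BAG-domain proteins release the nucleotide. HSP90 receives clients such as kinases and steroid receptors from HSP70, and small heat shock proteins hold unfolded clients without ATP. In heat-stressed cells the transcription factor HSF1 binds heat shock elements, runs of the unit NGAAN in alternating orientation, upstream of many of these genes. Cancer cells often hold cytosolic chaperones at high levels.

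Matches to the letters of the heat shock element are shown for the members on which the results turn, from RefSeq upstream sequence (GRCh38.p14). Binding of HSF1 to them was not measured. Capitals mark the match to the searched letters GAANNTTC or TTCNNGAA (each is its own reverse complement, so both strands are covered, and adjoining matches overlap). HSPA1A and HSPA1B are shown as near-identical copies. HSPB1, HSP90AA1 and HSP90AB1 are shown as the members with the largest differences in HCC1806. Stretches were ended where an exon of GENCODE 29 begins. For HSP90AA1 and HSP90AB1 the matches lie upstream of a RefSeq start inside the gene, and the windows at their other RefSeq starts held none. For HSP90AA1 all 28 bases printed are in an annotated exon, and only the matches and the bases between them are shown.
HSPA1A, chr6:31815407-31815463, plus strand: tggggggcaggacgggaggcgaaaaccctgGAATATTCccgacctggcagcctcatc
HSPA1B, chr6:31827603-31827670, plus strand: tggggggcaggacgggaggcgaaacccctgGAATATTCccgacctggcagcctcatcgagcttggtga
HSPB1, chr7:76302461-76302528, plus strand: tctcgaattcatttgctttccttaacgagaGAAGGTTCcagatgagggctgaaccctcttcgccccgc
HSP90AA1, chr14:102087105-102087132, minus strand: TTCCGGAAGGTTCgggaggcTTCTGGAA
HSP90AB1, chr6:44247748-44247865, plus strand: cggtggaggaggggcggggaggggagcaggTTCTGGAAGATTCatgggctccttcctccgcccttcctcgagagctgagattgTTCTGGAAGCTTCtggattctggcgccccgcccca
The 10 members had 15 upstream windows of 250 bases between them. A match to the 8 letters stood in at least 1 window of 8 members, against 14.0% of 27305 genes. Counted from the RefSeq start of the window, which differs from the GENCODE gene starts given further on, it lay 106 to 99 bases before HSPA1A, 105 to 98 before HSPA1B and 182 to 175 before HSPB1. The longer form of 13 letters, GAANNTTCNNGAA or TTCNNGAANNTTC, stood in HSPA8, HSP90AA1 and HSP90AB1 and in 0.557% of all genes. HSPH1 and BAG3 held neither form in these windows. A CCAAT or ATTGG box stood in a window of 5 members, against 37.0% of genes. TATAAA or TTTATA stood in HSPA1A and HSPA1B alone among the members, against 13.0% of genes. Where a gene had several windows, the one with the most matches is printed.

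Library totals ran from 18640633 to 24704877 counts for HCC1806 and from 34581754 to 44790741 for MDA-MB-468. Of these, mitochondrial genes took 11.6% to 15.0% for HCC1806 and 6.31% to 8.9% for MDA-MB-468. PRKRA, the targeted gene, measured 78.6, 82.6 and 72.1 CPM (counts relative to the TMM-scaled library size) in the HCC1806 controls and 37.5, 36.1 and 37.3 in the depleted libraries. It fell by 1.07 on the log2 scale (SE 0.10, edgeR adjusted p = 1.7e-05). In MDA-MB-468 it measured 41.1, 45.9 and 46.9 CPM against 39.2, 35.5 and 41.6, a log2 fold change of -0.20 (SE 0.10, edgeR adjusted p = 0.958) that did not pass. Depletion in MDA-MB-468 therefore rests on the labels. The 5 epithelial markers (EPCAM, CDH1, KRT8, KRT18 and KRT19) were all present in both lines. The 4 leukocyte markers summed to at most 4.17 CPM and the 3 endothelial markers to at most 4.02 in any library. The 4 fibroblast markers summed to 17.2 to 52.5 CPM, nearly all of it COL1A1. Of the 3 receptor genes that define triple-negative cancers by their low protein, PGR was at or below 0.3 CPM in every library, ESR1 ranged from 18.6 to 24.2 CPM in HCC1806 and from 6.27 to 7.51 in MDA-MB-468, and ERBB2 ranged from 124.1 to 209.0 CPM over all libraries.

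The members together took 0.242% to 0.534% of the counts of an HCC1806 library and 0.461% to 0.499% of those of an MDA-MB-468 library. HSP90AB1, the constitutive cytosolic HSP90, was the most abundant member per length in all 4 groups. Its CPM per kb of exon were 556.2, 469.5 and 406.9 in HCC1806 controls and 567.2, 543.5 and 538.6 in MDA-MB-468 controls. In HCC1806 controls it was followed by HSP90AA1, the inducible HSP90 (202.7 ± 49.3), HSPA8, the constitutive HSP70 (152.5 ± 57.0), and HSPB1, the small heat shock protein HSP27 (131.9 ± 9.41; CPM per kb, SD, n = 3). The libraries of HSPA8 overlapped those of HSP90AA1 and those of HSPB1, so the place of HSPA8 is not resolved. Every HSP90AA1 library lay above every HSPB1 library. Below them came BAG3 (57.4 ± 6.98 CPM per kb), a nucleotide exchange factor of HSP70 that links it to small heat shock proteins. HSPA1B, HSPA1A, DNAJB1 and HSPH1 lay between 52.0 and 31.3 CPM per kb, each overlapping the next, and BAG3 overlapped HSPA1B. DNAJA1, a J-domain protein, was lowest with 17.1 ± 3.88 CPM per kb.

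In MDA-MB-468 controls HSPA8 came second with 373.5 ± 12.4 CPM per kb, apart from HSP90AB1 above and from HSPB1 below (172.3 ± 16.0; SD, n = 3). HSPB1 and HSP90AA1 (171.5 ± 3.57 CPM per kb) overlapped. DNAJB1, the main inducible J-domain protein (66.9 ± 1.23 CPM per kb), and HSPA1B (42.0 ± 3.7) stood apart from their neighbours. HSPA1A, DNAJA1 and BAG3 followed between 26.4 and 21.6 CPM per kb, each overlapping the next. HSPH1, the cytosolic HSP110, was lowest (16.3 ± 0.381 CPM per kb). With depletion the first 4 places of HCC1806 were held by HSP90AB1 (308.8 ± 78.0), HSPA8 (129.6 ± 70.9), HSP90AA1 (125.0 ± 48.9) and HSPB1 (92.2 ± 8.16 CPM per kb). HSP90AB1 lay apart from HSPA8, while HSPA8, HSP90AA1 and HSPB1 each overlapped the next. BAG3 followed apart from HSPB1 at 49.1 ± 13.2 CPM per kb. Depleted MDA-MB-468 libraries had the order of their controls, except that DNAJA1 and HSPA1A, which overlapped, exchanged places.

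**Figure D1:**
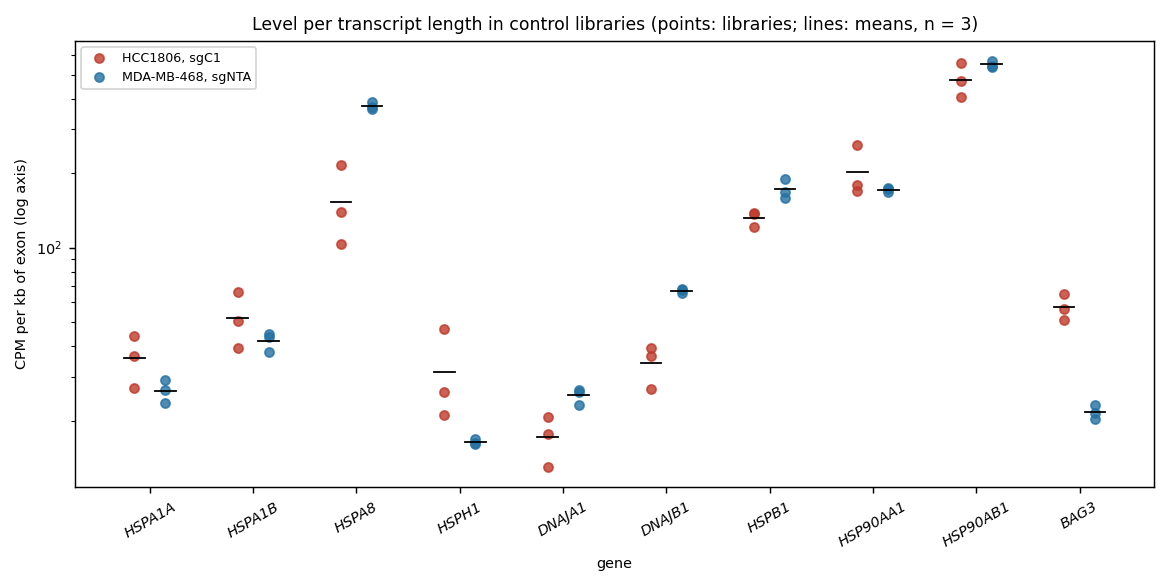
Level per length of the 10 members in control libraries. The log axis gives CPM per kb of exon, points are single libraries and lines are means of 3. HSP90AB1 is highest in both lines, and HSPA8 lies at 152.5 in HCC1806 and 373.5 in MDA-MB-468.

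In HCC1806 all 10 members had a log2 fold change below 0 with PACT depletion, against 48.5% of all 27029 genes tested. Most members moved together across these libraries, so such counts are not 10 separate observations. HSPB1 and HSP90AB1 fell, and none rose, in edgeR's quasi-likelihood test at an adjusted p under 0.05, a share to be read against 1.32% of all genes that fell and 1.16% that rose. The median log2 fold change of the members was -0.23 (range -0.70 to -0.15), against 0.01 over all genes tested. A table of bulk RNA gives relative levels, so fewer cells of a type and less RNA per cell cannot be told apart. Scaling by library size alone moved the median of all genes to 0.13 and that of the members to -0.12, and both calls held. In the same libraries the summed epithelial markers ranged from 1867 to 2114 CPM in controls and from 1352 to 1602 with depletion. The summed basal markers KRT5, KRT14, KRT17, TP63 and EGFR ranged from 2110 to 2332 CPM and from 1637 to 1785. Single markers did not all follow the sums. KRT17 went the other way, from 17.0 to 21.2 CPM in controls and from 25.8 to 31.4 with depletion. The groups overlapped for KRT14 and TP63, and for KRT8, KRT18 and KRT19 of the epithelial markers. The part of these shifts in the results was not tested.

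The replicate numbers of HCC1806 were taken to pair its libraries. The check given with the processing does not set replicates 2 and 3 apart. With the replicate number as a block in the model, 4 members fell and none rose, against 4.61% and 2.60% of all genes. HSP90AA1 and HSPH1 joined HSPB1 and HSP90AB1. Calls with the block rest on that pairing. With HCC1806 fitted alone and without the block, no member passed, 74 genes of the whole table passed and the smallest adjusted p of a member was 0.164. The model over both lines uses a shared spread that was narrower than that of HCC1806 alone. With HCC1806 fitted alone and the block, HSPB1, HSP90AA1 and HSP90AB1 passed (edgeR adjusted p = 0.0267, 0.00849 and 0.00814) and HSPH1 did not (0.142). The share of all genes that passed in that fit is not given here, so these calls cannot be read against it.

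The HSP90 genes showed the largest differences. HSP90AB1 (ENSG00000096384, GRCh38 chr6:44246166-44253888, plus strand) measured 1657, 1399 and 1213 CPM in control replicates 1 to 3 and 1149, 926.6 and 684.6 in the depleted ones. Every depleted library lay below every control. Its log2 fold change was -0.63 (SE 0.15, edgeR adjusted p = 0.033), or -0.65 with the block (SE 0.08, edgeR adjusted p = 6.78e-05). In the 12 fits without 1 library, the adjusted p without the block ran from 4.82e-04 to 0.128 and passed in 4.

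HSP90AA1 (ENSG00000080824, chr14:102080738-102139699, minus strand) measured 1361, 938.5 and 891.6 CPM in controls and 921.0, 638.2 and 408.6 with depletion. Depleted replicate 1 lay above control replicate 3, and each depleted library lay below the control of its own number. The log2 fold change of -0.70 (SE 0.21) did not pass without the block (edgeR adjusted p = 0.0915) and passed with it (-0.75, SE 0.10, edgeR adjusted p = 1.48e-04). DESeq2 also called it (adjusted p = 0.0298), as did edgeR with no filter on low counts (adjusted p = 6.46e-08). The ratio of HSP90AA1 to HSP90AB1 per length was 0.466, 0.381 and 0.417 in controls and 0.455, 0.391 and 0.339 with depletion, which overlap. HSP90AA1 shares 197 exon bases with WDR20 on the other strand, and the strand setting of the counting is not given in the sources used here, so reads of the pair cannot be told apart.

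HSPB1 (ENSG00000106211, chr7:76302544-76304295, plus strand) measured 197.8, 225.7 and 223.0 CPM in controls and 151.8, 163.4 and 136.8 with depletion, without overlap. It fell by 0.52 on the log2 scale (SE 0.11, edgeR adjusted p = 0.021; 0.00135 with the block). Its call was lost without control replicate 2 (edgeR adjusted p = 0.0634) and held in the other 11 fits without 1 library. HSPB1 and HSP90AB1 were the 2 members whose control and depleted libraries did not overlap, against 8.17% of all genes with every depleted library lower. BAG3, its partner in selective autophagy of misfolded clients (ENSG00000151929, chr10:119651370-119677819, plus strand), measured 178.3, 154.4 and 140.4 CPM in controls and 173.3, 130.3 and 101.2 with depletion. The groups overlapped, and the log2 fold change of -0.23 (SE 0.15) did not pass without the block (edgeR adjusted p = 0.572) or with it (0.105).

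Among the HSP70 genes no call was made without the block. HSPA8 (ENSG00000109971, chr11:123057489-123063230, minus strand) measured 1043, 673.3 and 501.9 CPM in controls and 997.5, 570.4 and 317.2 with depletion. The spread within each group was larger than the difference between them. Its log2 fold change was -0.24 (SE 0.29, edgeR adjusted p = 0.81), and -0.32 with the block (edgeR adjusted p = 0.0539). Small nucleolar RNA genes lie within HSPA8 on the same strand, among them SNORD14C, SNORD14D and SNORD14E. SNORD14C and SNORD14D share 88 and 87 bases with annotated exons of HSPA8, so reads there cannot be told apart. SNORD14E shares none.

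HSPA1A (ENSG00000204389, chr6:31815464-31817946, plus strand, 1 exon) and HSPA1B (ENSG00000204388, chr6:31827735-31830255, plus strand, 1 exon) encode the stress-inducible HSP70. Their coding sequences of 1923 bases differ at 4 positions (99.8% identical), so reads cannot be assigned to one or the other with confidence and both values are uncertain. Of the 100-base stretches of coding sequence, 91.0% for HSPA1A and 96.2% for HSPA1B also stand in transcripts of another gene. The treatment of reads that map to several places is not given, so the level of the summed pair is uncertain too. HSPA1A measured 109.4, 90.1 and 67.0 CPM in controls and 114.4, 74.2 and 48.4 with depletion. HSPA1B measured 167.1, 127.6 and 98.9 CPM and 163.9, 110.2 and 70.0. Both groups overlapped in both genes, with log2 fold changes of -0.17 (SE 0.22) for HSPA1A and -0.20 (SE 0.22) for HSPA1B, neither of which passed. The sum of the pair was 276.5, 217.7 and 165.8 CPM in controls and 278.4, 184.3 and 118.5 with depletion, a log2 fold change of -0.18. HSPA1B was counted 1.42 to 1.53 times as high as HSPA1A in all 6 libraries.

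HSPH1 (ENSG00000120694, chr13:31134974-31162388, minus strand), the exchange factor that works with HSP70 in taking apart aggregates, measured 393.1, 217.7 and 176.3 CPM in controls and 315.4, 201.9 and 108.7 with depletion. Control replicate 1 was the highest library, and the groups overlapped. Its log2 fold change was -0.33 (SE 0.28, edgeR adjusted p = 0.687), and it fell with the block (-0.37, SE 0.10, edgeR adjusted p = 0.0229). Without control replicate 1 the value without the block was 0.07.

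Neither J-domain gene rose or fell by the test. DNAJB1 (ENSG00000132002, chr19:14514770-14529770, minus strand) measured 144.4, 133.6 and 97.9 CPM in controls and 125.6, 112.9 and 89.5 with depletion. DNAJA1 (ENSG00000086061, chr9:33025211-33039907, plus strand) measured 56.6, 48.0 and 35.5 CPM and 54.8, 40.8 and 31.0. Both overlapped, with log2 fold changes of -0.20 (SE 0.14) for DNAJB1 and -0.15 (SE 0.18) for DNAJA1. Neither passed without the block or with it (edgeR adjusted p = 0.204 and 0.391). DNAJB1 shares 211 exon bases with TECR on the other strand.

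**Figure D2:**
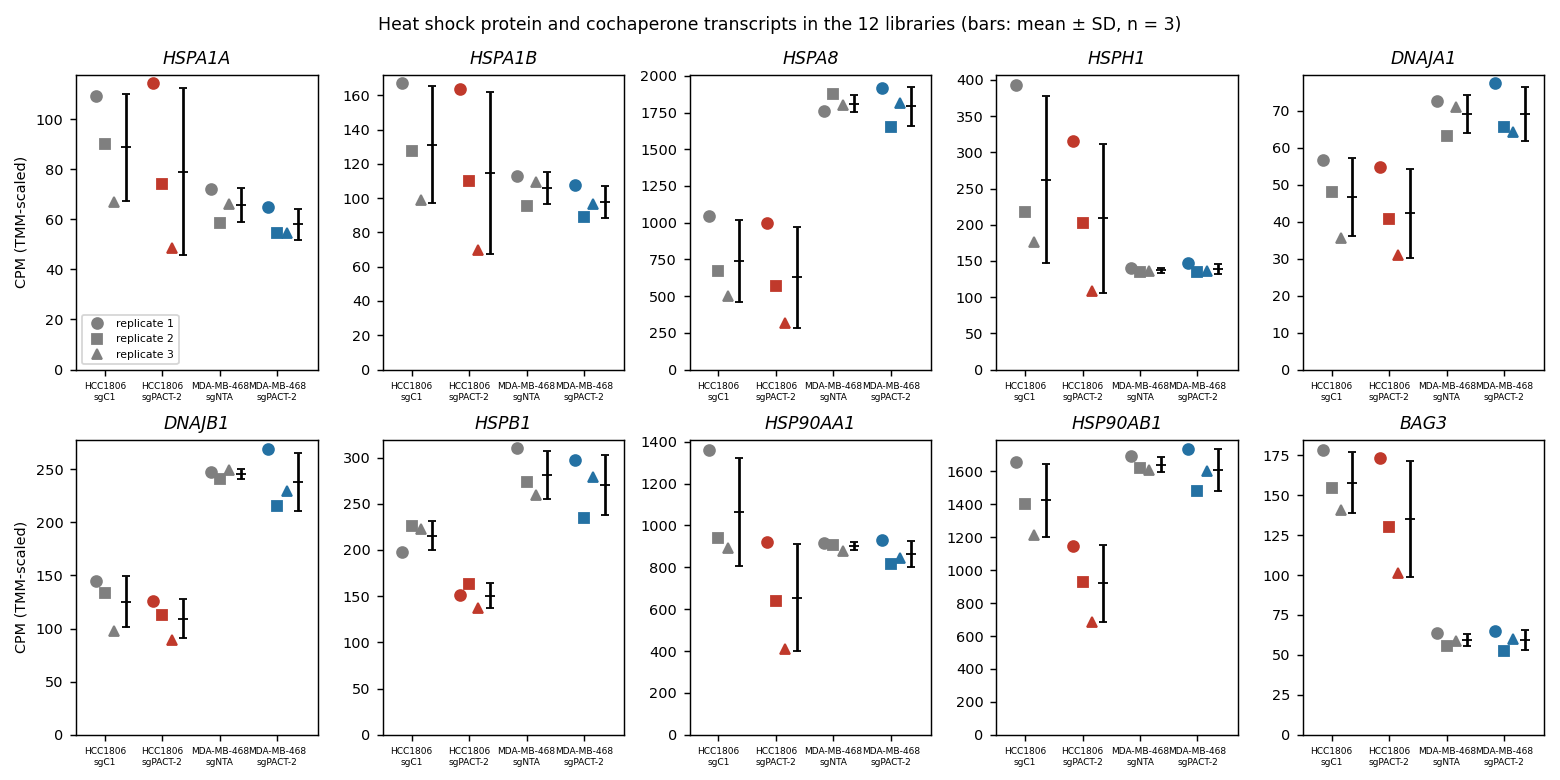
Members in the 12 libraries. The vertical axis of each panel is CPM and starts at 0, marker shapes give the replicate number and bars give mean ± SD of 3 libraries. In HCC1806 the 3 depleted libraries of HSPB1 (136.8 to 163.4) and HSP90AB1 (684.6 to 1149) lie below all controls, and in MDA-MB-468 the groups of each member overlap.

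Libraries of HCC1806 with the same number were high or low together. In controls, replicate 1 was the highest library for 9 members and replicate 3 the lowest for 9. In depleted libraries, replicate 1 was the highest for 9 and replicate 3 the lowest for 10. The exception in controls was HSPB1, which was lowest in replicate 1. The mean over the members, in log2 CPM centred within the line, was 0.50, 0.17 and -0.11 in control replicates 1 to 3 and 0.29, -0.15 and -0.69 in the depleted ones.

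Set against the control of its own number, the depleted library was lower in 29 of 30 differences, the exception being HSPA1A in replicate 1 (0.06). In all 3 numbers 9 members were lower, against 18.7% of all genes. The 30 differences come from 3 pairs of libraries, and most members moved together across them. They are therefore not 30 separate observations. The 3 differences were -0.53, -0.59 and -0.82 for HSP90AB1, -0.56, -0.56 and -1.13 for HSP90AA1, and -0.38, -0.47 and -0.70 for HSPB1 (log2 CPM). For HSPA8 they were -0.06, -0.24 and -0.66. The spread between replicates of the members was wide in this line. The median SD of log2 CPM was 0.337 in controls and 0.499 with depletion for the members, against 0.174 and 0.209 over the 15918 genes whose mean count reached 50. HSPA8 had the widest spread with depletion (SD 0.827) and HSPB1 the narrowest in both groups (0.105 and 0.129).

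**Figure D3:**
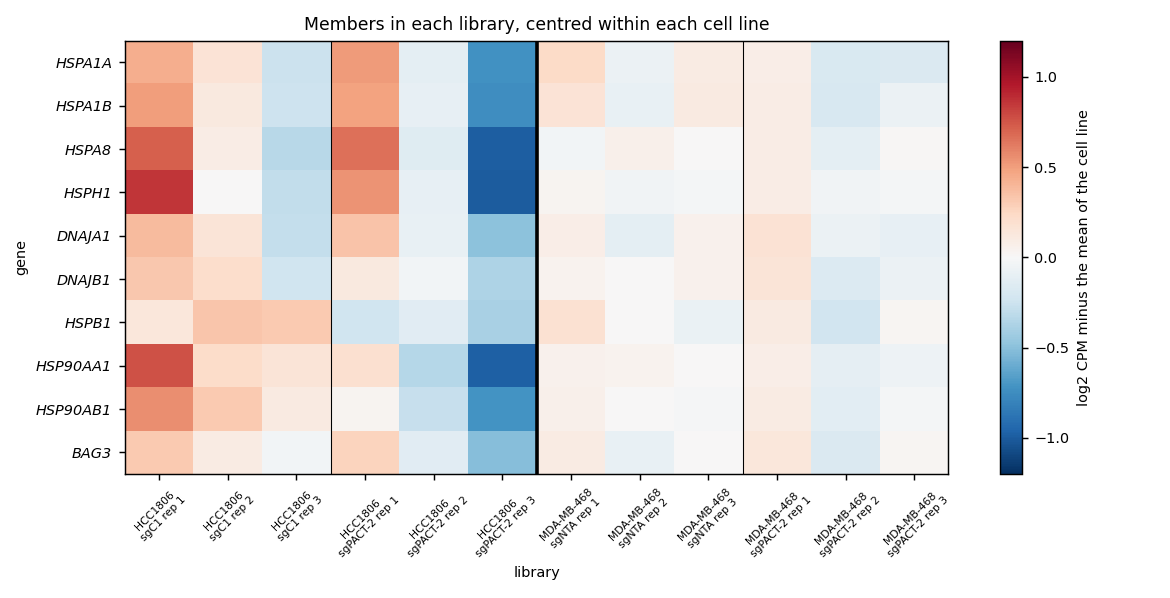
Members by library, as log2 CPM minus the mean of the cell line. Red is above and blue below that mean, thin lines part the guides and the thick line parts the lines. In HCC1806 the mean over the members is 0.50 in control replicate 1 and -0.69 in depleted replicate 3, while MDA-MB-468 stays between -0.14 and 0.11.

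Leaving out depleted replicate 1 gave 5 members that fell without the block. These were HSPB1, HSP90AA1 (log2 fold change -1.02), HSP90AB1 (-0.82), HSPA8 (-0.74, edgeR adjusted p = 0.0425) and BAG3 (-0.45, edgeR adjusted p = 0.0304). All genes called then numbered 1792, against 672 with all libraries. Leaving out control replicate 1 left HSPB1 alone, and leaving out control replicate 2 left none. Without both libraries numbered 1, a setting chosen after seeing the data, HSPB1, HSP90AA1 and HSP90AB1 fell (edgeR adjusted p = 0.00315, 7.43e-04 and 6.56e-04).

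In MDA-MB-468 no member passed, against 0.170% of all genes. The control and depleted libraries of all 10 members overlapped, whereas 6.94% of all genes had every depleted library lower and 6.20% had every one higher. No member had an unadjusted p under 0.05, against 5.27% of all genes, and DESeq2 called none. The median log2 fold change of the members was -0.04 (range -0.18 to 0.02), against -0.01 over all genes, and 8 of 10 were below 0, against 50.9%. HSP90AB1 measured 1690, 1620 and 1605 CPM in controls and 1738, 1483 and 1603 with depletion (log2 fold change -0.03, 95% interval -0.34 to 0.29). HSP90AA1 measured 915.1, 906.0 and 879.1 CPM and 931.7, 814.8 and 844.6 (-0.06, 95% interval -0.49 to 0.37). HSPB1 measured 310.5, 274.0 and 259.9 CPM and 297.4, 234.7 and 279.1 (-0.06, 95% interval -0.29 to 0.18).

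The intervals of these 3 genes leave room for differences of either sign. The largest value was that of HSPA1A (-0.18, 95% interval -0.65 to 0.29), with 72.2, 58.6 and 66.1 CPM in controls and 65.1, 54.4 and 54.5 with depletion. HSPA8 measured 1759, 1877 and 1798 CPM in controls and 1916, 1653 and 1813 with depletion. The remaining members had log2 fold changes from -0.11 (HSPA1B) to 0.02 (HSPH1). Between replicates of this line the members had a median SD of log2 CPM of 0.0722 in controls, below the 0.0975 over the 15918 genes. With depletion it was 0.144, slightly above the 0.133 over those genes. The shared spread of the model, taken over both lines, is wider than that of MDA-MB-468 alone and narrower than that of HCC1806 alone. As the square root of edgeR's common dispersion it was 0.171, against 0.0936 for MDA-MB-468 and 0.204 for HCC1806. With MDA-MB-468 fitted alone, no member passed either, and the smallest adjusted p was that of HSPA1A (0.482).

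**Figure D4:**
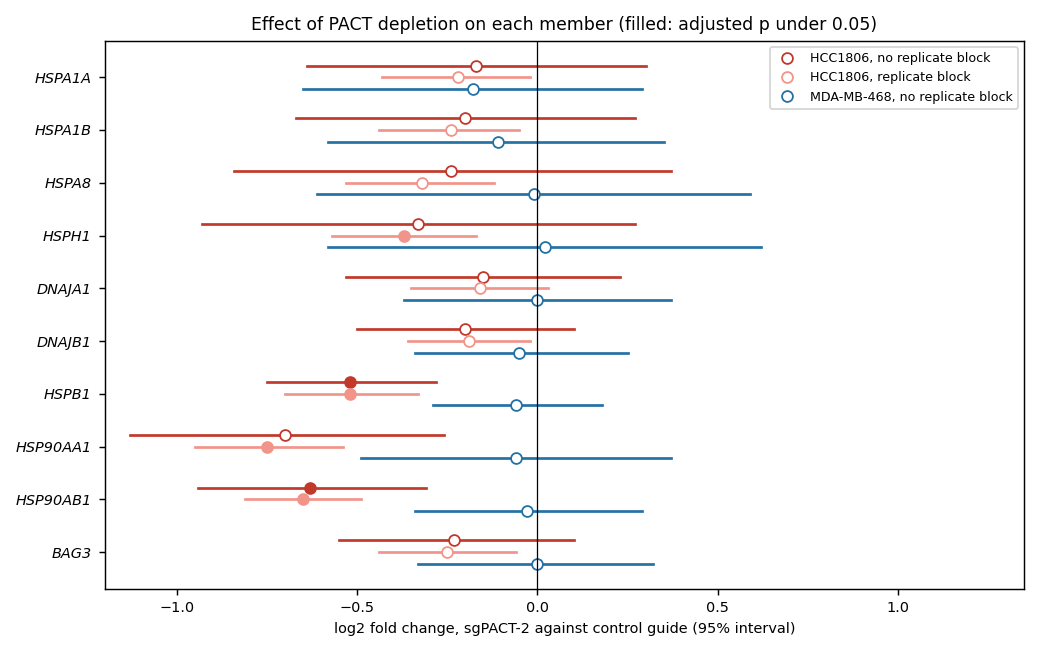
Log2 fold changes of the members, sgPACT-2 against the control guide, with 95% intervals. Filled circles passed an adjusted p of 0.05. In HCC1806 (red) HSPB1 and HSP90AB1 pass without the block and 4 members with it (pale red), and in MDA-MB-468 (blue) none passes.

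Whether the lines differed in their response was tested directly, as the effect in MDA-MB-468 minus that in HCC1806. No member passed, against 0.122% of all genes. HSP90AA1 (0.64, SE 0.29), HSP90AB1 (0.60, SE 0.21) and HSPB1 (0.46, SE 0.16) had the largest differences and unadjusted p-values under 0.05 (8.39% of all genes had one), with edgeR adjusted p-values of 0.571, 0.41 and 0.399. The 95% intervals were 0.02 to 1.25, 0.16 to 1.05 and 0.13 to 0.79. HSP90AA1 and HSP90AB1 passed without HCC1806 depleted replicate 1 (edgeR adjusted p = 0.035 and 0.0234). When a block for the number was added, HSP90AA1 (0.69, edgeR adjusted p = 0.0221) and HSP90AB1 (0.62, edgeR adjusted p = 0.0106) passed. The numbers were not taken to pair the MDA-MB-468 libraries. HSP90AA1 and HSP90AB1 also passed with no filter on low counts (edgeR adjusted p = 0.011 and 0.016). Whether these 2 genes passed thus depended on the fit.

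HSF1 (ENSG00000185122), the factor that drives heat shock transcription, measured 163.7, 167.7 and 170.2 CPM in HCC1806 controls and 185.8, 178.5 and 149.3 with depletion. Its log2 fold change was 0.03 (SE 0.11) there and -0.10 (SE 0.11) in MDA-MB-468, and neither passed. The transcript level of HSF1 does not measure its activity.

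Between the control libraries of the lines, 6 members differed, against 74.2% of all genes, so a call in this comparison was the usual case: 34.2% of genes were higher in MDA-MB-468 and 40.1% lower. In MDA-MB-468 the levels of HSPA8 (log2 difference 1.29, SE 0.29), DNAJB1 (0.97, SE 0.14), DNAJA1 (0.56, SE 0.18) and HSPB1 (0.39, SE 0.11) were higher. Those of BAG3 (-1.41, SE 0.16) and HSPH1 (-0.94, SE 0.29) were lower. In CPM, BAG3 measured 178.3, 154.4 and 140.4 in HCC1806 and 63.5, 55.5 and 59.0 in MDA-MB-468. HSPH1 measured 393.1, 217.7 and 176.3 against 140.5, 134.4 and 135.9. Its call was lost without HCC1806 control replicate 1 (-0.51, edgeR adjusted p = 0.0949).

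The scaling mattered here. The median log2 difference of all genes was -0.26, -0.51 with library size alone and -0.01 when only genes whose mean count reached 50 were fitted. Relative to such shifts the values of HSPA8, DNAJB1, BAG3 and HSPH1 kept their call under every scaling, while DNAJA1 and HSPB1 did not pass with library size alone (edgeR adjusted p = 0.0797 and 0.256) or with the 50-count filter (0.198 and 0.525). HSP90AA1, HSPA1A and HSPA1B, which did not pass, were called lower in MDA-MB-468 under both settings (edgeR adjusted p from 0.00606 to 0.0278). HSP90AB1 (0.20, not passing) turned to -0.04 and -0.11 under these settings. HSPA8 was 9.5 to 12.2 times the sum of HSPA1A and HSPA1B in the 6 MDA-MB-468 libraries and 2.68 to 3.77 times in the 6 of HCC1806 (CPM). The size of this ratio is uncertain, because reads shared by the pair may not all have been counted. HSF1 was lower in MDA-MB-468 (log2 difference -0.92, SE 0.11, edgeR adjusted p = 1.05e-06), at 98.3, 84.7 and 82.9 CPM in its controls.

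Other genes of the chaperone network were read from 10 lists with 91 genes between them, of which 89 were tested. In HCC1806 1 rose and 4 fell without the block, with a median log2 fold change of -0.11, where 1.16% of all genes rose and 1.32% fell. With the block 2 rose and 19 fell, where 2.60% of all genes rose and 4.61% fell. All 5 calls made without the block were lost when HCC1806 was fitted alone without it (edgeR adjusted p from 0.168 to 0.262). In MDA-MB-468 none passed either way, with a median of -0.03. Genes of several lists are counted once in these totals.

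The 13 HSP90 cochaperones had 1 gene that fell in HCC1806. PTGES3, the cochaperone p23 that holds HSP90 closed around its client, went from 133.6 ± 25.0 to 93.5 ± 15.0 CPM (SD, n = 3 each; log2 fold change -0.52, SE 0.13, edgeR adjusted p = 0.0445). This call held in 2 of the 12 fits without 1 library (edgeR adjusted p up to 0.185), and it was lost with RLE factors (0.0523) and with library size alone (0.0634). With the block 4 of 13 fell: PTGES3, STIP1, which joins HSP70 to HSP90 (-0.41), AHSA1, which stimulates the ATPase of HSP90 (-0.45), and the immunophilin FKBP4 (-0.39). FKBP5, another immunophilin, had 0.32 and did not pass. In MDA-MB-468 the smallest p-values were those of UNC45A (-0.20) and PPID (0.16), which did not pass.

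None of the 14 genes of the TRiC chaperonin, the ring that folds actin and tubulin, and of prefoldin, which feeds it, passed without the block. Their median log2 fold change in HCC1806 was -0.24, and 11 of 14 were below 0. With the block 6 fell, all of them TRiC subunits: TCP1 (-0.39), CCT4 (-0.45), CCT5 (-0.39), CCT6A (-0.29), CCT7 (-0.42) and CCT8 (-0.37). CCT4 measured 109.7 ± 21.3 CPM in controls and 81.1 ± 20.1 with depletion, and CCT7 150.5 ± 14.7 and 113.6 ± 22.5 (SD, n = 3 each). No prefoldin gene passed. In MDA-MB-468 PFDN5 (-0.22) and PFDN6 (-0.11) had the smallest p-values and did not pass.

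Of 8 mitochondrial chaperones and proteases 1 fell in HCC1806. HSPD1, the mitochondrial chaperonin HSP60, went from 430.7 ± 104.1 to 261.0 ± 77.5 CPM (SD, n = 3 each; log2 fold change -0.72, SE 0.17, edgeR adjusted p = 0.0347). The call held in 3 of the 12 fits without 1 library, where the log2 fold change ran from -0.98 to -0.52 and the edgeR adjusted p reached 0.158. Its cofactor HSPE1 had -0.71 (SE 0.20, edgeR adjusted p = 0.0795) and fell with the block (-0.74, edgeR adjusted p = 0.00145). HSPA9, the mitochondrial HSP70, had 0.03. In MDA-MB-468 HSPE1 (-0.17) and DNAJA3 (0.08) had the smallest p-values.

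Of 12 chaperones of the endoplasmic reticulum 1 fell and 1 rose in HCC1806. HSP90B1, the HSP90 of that compartment, fell by 0.47 (SE 0.11, edgeR adjusted p = 0.0327), from 4147 ± 687.2 to 2988 ± 254.6 CPM. It was called in 5 of the 12 fits without 1 library (edgeR adjusted p up to 0.12) and not with library size alone (0.0556). DNAJB9, a J-domain protein induced by the unfolded protein response, rose by 0.50 (SE 0.13, edgeR adjusted p = 0.0453), from 10.6 ± 0.822 to 15.0 ± 1.28 CPM (SD, n = 3 each). DNAJB9 was called in 1 of the 12 fits without 1 library (edgeR adjusted p up to 0.15) and not with RLE factors (0.0567). With the block 4 fell: HSP90B1, PDIA4 (-0.41), CALR (-0.44) and CANX (-0.34). HSPA5, the HSP70 BiP, had -0.20 and did not pass. In MDA-MB-468 DNAJB9 (0.31) and HSPA5 (0.19) had the smallest p-values and did not pass.

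Cytosolic relatives of the members showed few calls. None of the 8 other HSP70 and HSP110 genes passed in either line, with a median log2 fold change of 0.00 in both. HSPA14, a ribosome-bound HSP70, had 0.14 in HCC1806, and HSPA4L, an HSP110, had 0.16 in MDA-MB-468. HSPA6, an HSP70 that is silent without stress in most cells, measured 0.621 ± 0.239 CPM in HCC1806 controls and 1.05 ± 0.724 with depletion, and at most 2 counts in depleted MDA-MB-468 libraries. HSPA1L, which lies beside HSPA1A, had 0.38 in MDA-MB-468 at 2.28 ± 0.74 CPM in controls. Of 9 other J-domain genes none passed, and DNAJB2 (0.45) rose with the block (edgeR adjusted p = 0.0448). DNAJC2 had 0.28 in HCC1806, and DNAJC7 and DNAJA4 had 0.12 each in MDA-MB-468.

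Of 9 other HSP70 regulators none passed with or without the block. ST13, the HSP70-interacting protein Hip, had -0.30 in HCC1806, and STUB1, the ubiquitin ligase CHIP, had -0.21 there and -0.19 in MDA-MB-468. BAG6 had -0.10 in MDA-MB-468. Of 7 other small heat shock proteins 5 were tested and none passed. CRYAB measured 1.0 ± 0.246 CPM in HCC1806 controls and 99.8 ± 12.5 in MDA-MB-468 controls, with log2 fold changes of -0.43 and -0.17 on depletion. HSPB8 measured 22.3 ± 2.98 CPM in HCC1806 controls and at most 3 counts in any MDA-MB-468 library. HSPB2 had no count in the 3 HCC1806 controls, and no fold is given for it there.

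Of the 4 genes of the heat shock factor list HSBP1, which binds the trimerization domain of HSF1, fell in HCC1806 (-0.48, SE 0.10, edgeR adjusted p = 0.0159), from 47.9 ± 1.77 to 34.5 ± 2.48 CPM (SD, n = 3 each). The call was lost in 1 of the 12 fits without 1 library, that without depleted replicate 2 (edgeR adjusted p = 0.0525). HSF2 had -0.11 there and 0.12 in MDA-MB-468, and HSF4 had -0.44 in MDA-MB-468. Neither passed. Of 18 other heat-shock-inducible genes, a list that shares HSPD1, HSPE1 and other genes with those above, 1 fell in HCC1806 without the block and 7 with it. Its median was -0.27. The 7 included SERPINH1, the collagen chaperone (-0.48), and CACYBP (-0.38). IER5 had 0.15 in HCC1806 and -0.04 in MDA-MB-468, and neither passed.

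**Figure D5:**
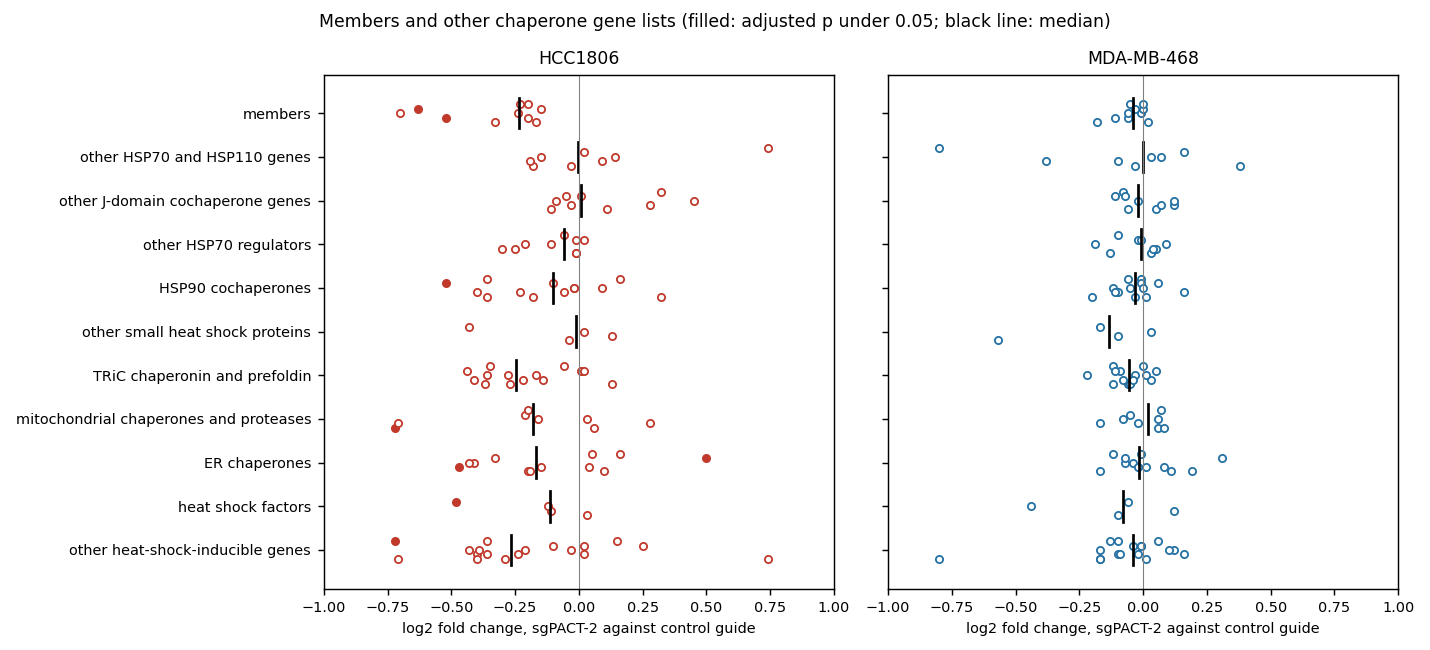
Log2 fold changes of the members and of 10 chaperone gene lists in both lines. Each circle is a gene, filled where the adjusted p was under 0.05 without the block, and black lines are medians; genes with at most 3 counts in both groups of a line are not drawn, nor is HSPB2 in HCC1806. In HCC1806 the median is -0.23 for the members and -0.24 for TRiC and prefoldin, and no circle is filled in MDA-MB-468.

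Genes with a pattern most like that of the members were sought among 12723 genes whose mean count reached 50 in each of the 4 groups, by Pearson's r of log2 CPM centred within each line over the 12 libraries. The libraries share their depth and scaling across genes, and most of the range comes from the 6 HCC1806 libraries, so these values are descriptions. The 5 genes most like the mean of the members were CCT6A (r = 0.987), STIP1 (0.983), FKBP4 (0.979), AHSA1 (0.978) and FKBP1A (0.975). STIP1 measured 240.8, 172.2 and 162.1 CPM in HCC1806 controls and 207.1, 144.7 and 95.3 with depletion. CCT6A, STIP1, FKBP4 and AHSA1 stood on the lists above, and FKBP1A, a prolyl isomerase, did not.

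Member by member, the gene most alike was TCP1 for HSP90AA1 (r = 0.987), TM7SF3 for HSP90AB1 (0.99), CCT6A for HSPH1 (0.985) and for HSPA1B (0.969), and FKBP1A for HSPA1A (0.958). It was ANPEP, an aminopeptidase, for HSPA8 (0.974), MRPL18 for DNAJA1 (0.953), GRB2 for DNAJB1 (0.981), PPIF for BAG3 (0.978) and MRI1 for HSPB1 (0.953). Among themselves, HSPA1A and HSPA1B were most alike (r = 0.99), and HSPA8 went with HSPH1 (0.985) and HSP90AA1 with HSP90AB1 (0.98). HSPB1 stood farthest from the rest, with r between 0.286 (HSPA8) and 0.757 (HSP90AB1).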

How the data were processed

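The authors deposited a single table of unnormalized read counts by Ensembl gene for the 12 libraries. Per the submitters' processing notes, Trimmomatic 0.36, STAR 2.5.2b and featureCounts of Subread 1.5.2 were used with GRCh38; the strand setting, the treatment of reads that map to several places and the annotation release are not given in the sources used here. Rows without a gene name held 0.0284% of counts. Positions come from GENCODE 29 (GRCh38), upstream sequences from RefSeq.

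Counts were tested in edgeR 4.0.16 (R 4.3.3): filterByExpr (27029 of 44375 genes with a count), TMM, and 1 quasi-likelihood model over 12 libraries with 1 coefficient per group. Tests were two-sided, with Benjamini-Hochberg adjustment over all genes tested. CPM per kb divides by the summed exon length. Alternatives were RLE and plain library sizes, DESeq2 1.42.0, no filter, a mean count of 50 or more, each line alone, the replicate number within its line as a block, the HSPA1 pair summed and each library left out. The steps were tested on simulated data, in which the share of false calls was above the nominal rate in both lines, and more so with the block. The simulated counts had no replicate effect and the same spread in both lines. They therefore do not show how the block behaves with paired libraries or with lines of unlike spread.

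Deviations from group means over 15918 genes correlated between libraries of the same number at 0.479, 0.294 and 0.152 in HCC1806. All were above 0.1, so the numbers were taken to pair these libraries. Between other numbers the correlations ran from -0.462 to 0.351. The highest was that of control replicate 2 with depleted replicate 3, so the check does not set replicates 2 and 3 apart. The labels say nothing of a shared batch. In MDA-MB-468 the same-number correlations were 0.116, 0.075 and 0.106, not all above 0.1, and the numbers were not taken as pairs. The highest between other numbers was 0.00375 there, so the check does not settle whether these libraries are paired.

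The members and gene lists were chosen with earlier results of these data known. Genes named were the members, PRKRA, HSF1, the 2 of each list with the smallest p-value in each line, and the most alike by r. Of the genes so named, 1 is not reported here. STIP1, AHSA1, FKBP4, the TRiC subunits other than CCT4 and CCT7, PDIA4, CALR, CANX, HSPA9, SERPINH1, CACYBP, IER5 and the HCC1806 value of HSPA5 were added after their values were seen.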

Additional observations from a re-analysis of the deposited data

Results flagged for a closer look

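PRKRA differed between the lines. The effect of sgPACT-2 in MDA-MB-468 minus that in HCC1806 was 0.87 on the log2 scale (SE 0.14, edgeR adjusted p = 0.0198), between effects of -1.07 (HCC1806) and -0.20 (MDA-MB-468). With each of the 12 libraries left out in turn it passed in 5 fits, with adjusted p-values from 0.00472 to 0.0931. Without the block and with the filter on low counts, no member of the chaperone family passed this test when all libraries were used, and groups of 3 libraries are too small for a test of single libraries that stand apart.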

How the results depend on the processing

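With PACT depletion in HCC1806, 672 genes of the whole table passed. They numbered 1233 by DESeq2, 1351 with no filter, 74 with the line fitted alone and 301 to 1792 with 1 library left out. Members that passed (2) numbered 0 with the line alone and 0 to 5 with 1 library left out. HSP90AA1 passed beside them by DESeq2 (adjusted p = 0.0298) and with no filter (edgeR adjusted p = 6.46e-08). Genes of the 10 chaperone lists that passed (5) numbered 3 with RLE factors, 8 by DESeq2, 15 with no filter, 0 with the line alone and 0 to 25 with 1 library left out. In MDA-MB-468 46 genes passed, 108 by DESeq2, 143 with no filter, 323 with the line alone and 19 to 98 with 1 library left out. The test of different responses called 33 genes, 177 by DESeq2, 275 with no filter and 9 to 168 with 1 library left out. It called 2 members with no filter and 0 to 2 with 1 library left out. The difference between control libraries called 20068 genes, and 13022 where only genes with a mean count of 50 were tested, a setting that tests fewer genes. For the other changes the cause was not tested.

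The replicate block changed calls as follows, and it changed the call of no other member in either depletion effect. In HCC1806, where the numbers were taken to pair the libraries, it gave 1947 genes, 4 members and 21 list genes. In MDA-MB-468, where the numbers were not taken as pairs, the block gave 102 genes and no member. In the test of different responses it gave 271 genes and 2 members, HSP90AA1 (edgeR adjusted p = 0.0221) and HSP90AB1 (0.0106). MDA-MB-468 fitted alone with the block, a setting chosen after seeing the data, gave 1031 genes and 4 list genes. Without both HCC1806 libraries numbered 1, likewise chosen after seeing the data, 1255 genes and 18 list genes passed in HCC1806 and 140 genes in MDA-MB-468. The test of different responses then gave 166 genes and 2 members.

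Signs turned only for values that did not pass with all libraries. By library size alone, log2 fold changes were 0.02 for HSF2 in HCC1806, and in MDA-MB-468 0.04 for BAG3, 0.000545 for DNAJB1, 0.02 for HSP90AB1, 0.03 for HSPA8 and 0.01 for IER5. BAG3 in MDA-MB-468 was 0.00111 with RLE factors, 0.00322 by DESeq2, 0.00269 with the 50-count filter and 0.01 with the line alone, with and without the block, and without both libraries numbered 1. DNAJA1 there was -0.0022 with no filter and -0.00221 with the block, and HSPA8 was 0.000429 with the line alone and 1.85e-05 with the block added. Without both libraries numbered 1, HCC1806 gave -0.05 for HSF1, 0.03 for HSF2 and -0.07 for HSPA9. The difference between responses of HSPA1A was 0.05 with the block, 0.05 for the summed pair and 0.2 without both libraries numbered 1. HSP90AB1 between control libraries was -0.04 by library size and -0.11 with the 50-count filter.

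With 1 library left out, HCC1806 log2 fold changes ran from -0.39 to 0.03 for DNAJA1, -0.54 to 0.08 for HSPA1A, -0.55 to 0.06 for HSPA1B, -0.74 to 0.09 for HSPA8, -0.76 to 0.07 for HSPH1, -0.03 to 0.12 for HSF1 and -0.1 to 0.09 for HSPA9. In MDA-MB-468 they ran from -0.08 to 0.08 for BAG3, -0.09 to 0.05 for DNAJA1, -0.14 to 0.02 for DNAJB1, -0.09 to 0.03 for HSP90AB1, -0.07 to 0.04 for HSPA8, -0.13 to 0.04 for HSPB1, -0.02 to 0.05 for HSPH1 and -0.17 to 0.04 for IER5. Differences between responses ran from -0.02 to 0.4 for DNAJA1, -0.25 to 0.37 for HSPA1A, -0.16 to 0.44 for HSPA1B, -0.09 to 0.74 for HSPA8 and -0.04 to 0.79 for HSPH1.

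The lowest count of any member in any library was 839. Reads shared by HSPA1A and HSPA1B, and by genes that overlap on opposite strands, cannot be told apart. The log2 fold change of the summed pair was -0.18 in HCC1806.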
